A study of Mus musculus with 2 samples.

Results

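The 39 genes described here encode the main DNA repair pathways and the kinases of the DNA damage checkpoint. They were taken from a written list of symbols. No rule on measured values picked them, but earlier results of these data were known when they were chosen. All 39 were found among the 42462 Ensembl genes that could be given a symbol in tables of 69691 rows. They fall into 12 Fanconi anaemia genes, 11 homologous recombination genes, 4 checkpoint kinases, 2 mismatch repair genes, 6 genes of base excision and strand-break repair, and 4 end joining genes.

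PolyA-selected RNA was sequenced from G1E-ER4, an immortalised mouse erythroid line derived from Gata1-null G1E cells and carrying GATA1 fused to the estrogen receptor's ligand-binding domain. The fusion becomes active when estradiol is added, and the cells then begin to mature toward red cells. There was 1 group: cells given 10 nM 17beta-estradiol for 14 h, sequenced as biological replicates 1 and 2 (n = 2). Both libraries carry the restored GATA1 and the hormone, both come from 1 line, and the labels list 1 biosample record for both. How far the difference between them is technical is therefore unknown. No untreated sample was analysed here, so the values are levels and differences between the 2 libraries, not responses to estradiol.

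Cells meet different DNA lesions with different repair systems. Base excision repair removes small damaged bases, such as uracil or oxidised guanine, and passes through a single-strand break that PARP1, XRCC1 and DNA ligase III help to seal, while mismatch repair corrects errors left by replication. Double-strand breaks are joined directly by Ku and DNA-PKcs, or copied from the sister chromatid by the BRCA2-dependent recombination machinery, which also completes the repair of interstrand crosslinks that the Fanconi anaemia proteins unhook. ATM and ATR sense breaks and stalled forks and act through CHK2 and CHK1, and inherited loss of Fanconi genes causes bone marrow failure with anaemia, which ties this pathway to blood formation.

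A shared E2F-type motif is shown first because E2F factors are textbook regulators of S-phase and repair genes. RefSeq promoter windows (250 bases before to 50 after a start site, build GRCm38.p6) were given for 33 of the 39 genes. The 8-letter motifs TTTCCCGC, TTTGGCGC, TTTGCCGC and TTTCGCGC, read on both strands, were found in the windows of 6 of these 33 genes (18.2%), against 2.26% of all 32851 windows and 2.60% of the 27025 genes they belong to. In the 30-base stretches below, read 5′ to 3′ on the gene's strand, the capitals mark the motif or its reverse complement; Rad51c has 2 annotated starts with 1 match each.
Brca2: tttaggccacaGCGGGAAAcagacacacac
Chek2: cgggattagccGCGGGAAAccaagacgtcg
Fancg: tttcttttcagTTTCCCGCggaaccgtctc
Msh6: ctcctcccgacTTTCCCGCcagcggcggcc
Rad51c, first start: gtttccagcgcTTTCGCGCctcttgctcta
Rad51c, second start: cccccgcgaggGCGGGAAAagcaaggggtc
Xrcc6: agggggtggaaGCGGGAAAtgcgagtgggc
These lie at chr5:150522442-150522471 (Brca2, plus strand), chr5:110839820-110839849 (Chek2, plus), chr4:43010335-43010364 (Fancg, minus), chr17:87975054-87975083 (Msh6, plus), chr11:87404477-87404506 and chr11:87404941-87404970 (Rad51c, minus) and chr15:82016312-82016341 (Xrcc6, plus). The 6 genes come from 5 of the 6 groups and their levels differed widely, from 0.92 and 1.07 TPM for Rad51c to 25.04 and 16.57 TPM for Msh6. A CCAAT box was present for 21 of the 33 genes (63.6%, against 41.1% of all genes with a window). At least 1 of the GATA motifs, which are AGATAA with its variant TGATAA, and AGATAG with its variant TGATAG, was present for 2 genes, Fancc and Rad52 (6.06%, against 33.0% of genes). TTTGAA, the cell cycle homology region core, was present for 0 genes (20.2% of genes); these are matches of letters and were not tied to binding.

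The libraries held 38395462 and 60097369 rounded counts, so replicate 2 was 1.57 times as deep, and a limit of 3 counts corresponded to 0.0781 and 0.0499 CPM (counts scaled to a total of 1000000). Of 13 erythroid markers, 12 reached 1 TPM (transcript number per 1000000 transcripts, from counts divided by length) in both libraries. The 13 summed to 33303 TPM in the first library and 84567 TPM in the second. Hbb-bs (13158 and 49651.5 TPM) and Hba-a1 (7117.93 and 21029 TPM) rose most. Klf1 (1422.06 and 754.29 TPM), Tal1, Tfrc and Hba-a2 were higher in the first library, and the other markers in the second. The part of this gap in the differences between the libraries below was not tested. Of 26 markers of other cell types, 4 reached 1 TPM (Gp9, Itga2b, Spi1 and Kit), 11 had 0 counts in both libraries, and the 26 summed to 40.6 and 44.1 TPM. In bulk RNA, fewer cells with a transcript and less of it per cell cannot be told apart.

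Among the 39 genes, those of base excision and strand-break repair stood highest. Checkpoint kinases, end joining genes and several Fanconi genes stood near or under 1 TPM. With expressed meaning no less than 1 TPM in each library, 28 of the 39 genes were expressed (71.8%), beside 37.6% of all 21461 nuclear protein-coding genes. The median of mean levels over all 39 genes, expressed or not, was 6.53 TPM (4.44 in replicate 1, 6.32 in replicate 2). The same median was 0.03 TPM for all nuclear protein-coding genes and 20.3 TPM for the 8062 expressed ones. Fancb, Brip1, Fancl, Atm, Chek1 and Lig4 were under 1 TPM in both libraries, and Fancd2, Fanci, Rad51c, Chek2 and Xrcc5 in 1 library. By group, the median of mean levels was 73.4 TPM for base excision, 11.5 TPM for mismatch repair, 7.46 TPM for recombination, 2.77 TPM for the Fanconi genes, 1.17 TPM for end joining and 0.938 TPM for the checkpoint kinases.

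**Figure D1:**
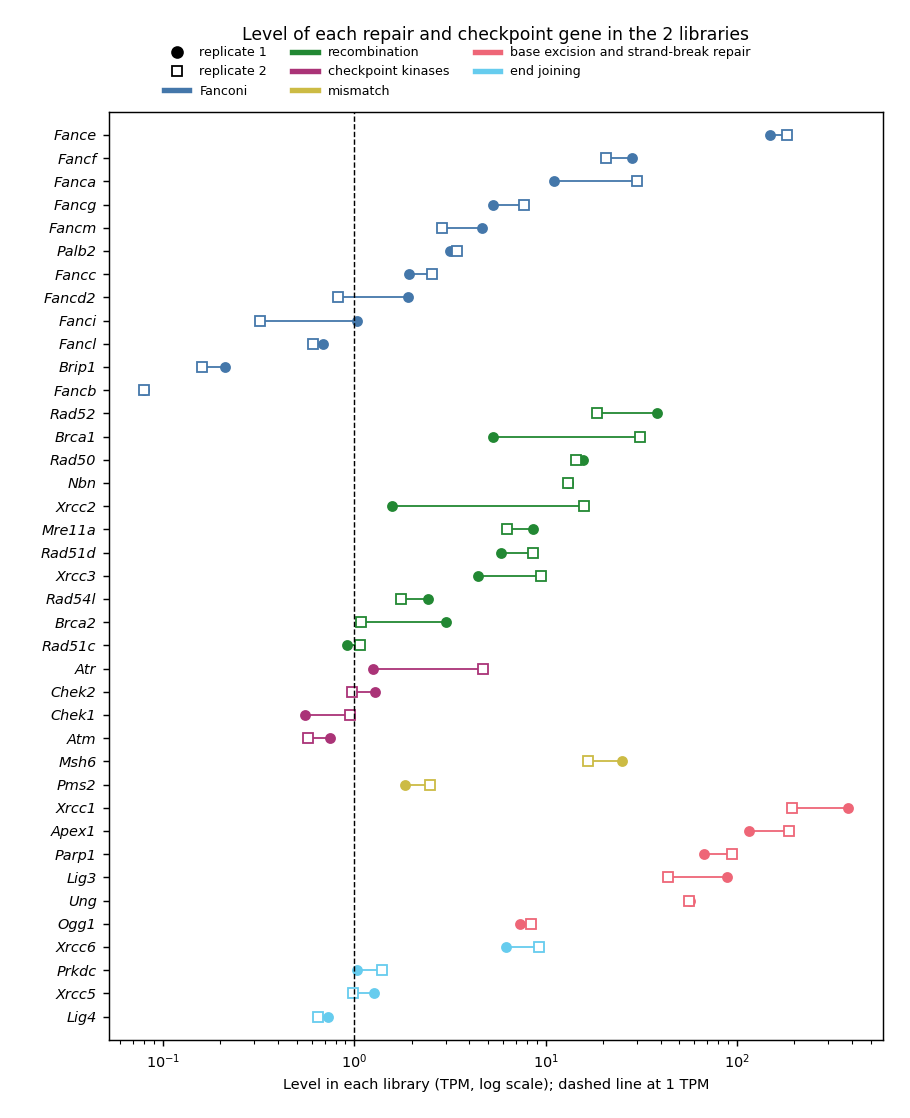
Level of each gene in TPM (log axis), one row a gene, grouped and coloured by pathway; filled circles are replicate 1, open squares replicate 2, and the dashed line marks 1 TPM. Base excision and strand-break repair genes reach up to 378.67 TPM (Xrcc1), while 6 genes lie left of the line in both libraries.

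All 6 base excision and strand-break repair genes were expressed, and 4 of them passed 50 TPM in both libraries. Xrcc1, the scaffold that holds the single-strand break repair enzymes together, had the highest mean of the 39 genes, with 378.67 TPM in replicate 1 and 194.6 in replicate 2 (286.6 ± 130, SD, n = 2; GRCm38 chromosome 7, 24546289 to 24573440). Apex1, the endonuclease that cuts at abasic sites, had 115.21 and 188.23 TPM, and Parp1, the sensor of strand breaks, 66.93 and 93.89 TPM. Lig3, the ligase that works with XRCC1, had 89.15 and 43.62 TPM. Of this, 60.16 and 36.99 TPM lay on the 793-base coding transcript Lig3-208, and the 3056-base coding Lig3-202 had 1.72 and 2.1 TPM. Ung, which removes uracil, was almost equal in the 2 libraries at 56.86 and 56.03 TPM (56.4 ± 0.587). Ogg1, which removes oxidised guanine, was the lowest of the group at 7.37 and 8.39 TPM, 7.10-fold below Ung (log2 2.83 ± 0.15), more than the spread between libraries. On protein-coding transcripts alone the log2 ratio of these glycosylases was 0.85 ± 0.42 and no longer exceeded the spread.

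Both mismatch repair genes were expressed. Msh6, a subunit of the complex that recognises mismatches, had 25.04 and 16.57 TPM. Pms2, an endonuclease that cuts the strand holding the error, had 1.84 and 2.49 TPM. Msh6 was above Pms2 in both libraries.

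Of the 12 Fanconi genes, 7 were expressed, and the mean levels of the 12 ran from 0.08 to 166 TPM. Fance, a subunit of the core complex that ubiquitinates FANCD2 and FANCI, had 149.83 and 182.53 TPM (166 ± 23.1; chromosome 17, 28313519 to 28326572), the second highest mean of the 39 genes. Fancf, an adaptor of the same complex, had 28.31 and 20.79 TPM, and Fanca 11.05 and 30.21 TPM. The remaining core complex genes were lower. Fancg had 5.33 and 7.72 TPM, Fancm, the DNA translocase that brings the complex to chromatin, 4.63 and 2.86 TPM, and Fancc 1.93 and 2.55 TPM. Fancl, the ubiquitin ligase subunit itself, had 0.69 and 0.61 TPM from 22 and 35 counts. Fancb, its partner in the catalytic module, had 0.08 TPM in both libraries from 7 and 12 counts (exact Poisson 95% interval 2.81 to 14.4 counts in replicate 1, counting error only). Within the core complex, Fancc lay below Fance by 6.16 ± 0.07 on the log2 scale.

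The substrates of that complex were also low. Fancd2 had 1.92 TPM in replicate 1 and 0.82 in replicate 2, and Fanci 1.04 and 0.32 TPM; both were higher in replicate 1, and Fancd2 exceeded Fanci by a log2 ratio of 0.98 ± 0.22. In CPM this ratio was 0.87 ± 0.50 and on protein-coding transcripts 0.46 ± 0.59, neither more than 2 times the gap between libraries. Exons of Fanci overlap those of Polg on the other strand, which stood at 241.71 and 177.27 TPM, and the use of strand in counting is not stated. Of the genes that link the pathway to recombination, Palb2, the bridge between BRCA1 and BRCA2, had 3.17 and 3.43 TPM. Brip1, a helicase partner of BRCA1, had 0.21 and 0.16 TPM from 25 and 59 counts.

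Recombination genes were expressed in 10 of 11 cases, and none reached 50 TPM in both libraries. In the break-end complex, Nbn had 13.09 and 13.16 TPM, Rad50 15.7 and 14.38, and Mre11a 8.6 and 6.32. Brca2, a central mediator of strand exchange, had 3 and 1.09 TPM. Brca1, which promotes break-end processing, had 5.31 and 31.26 TPM (18.3 ± 18.3), the widest gap among the recombination genes on the linear scale. Rad52, an annealing factor, had 38.2 and 18.58 TPM, and Rad54l, a motor protein of strand invasion, 2.43 and 1.75 TPM.

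The products of Xrcc2, Xrcc3, Rad51d and Rad51c bind one another in complexes that assist strand exchange, and the levels of the 4 genes were uneven. Xrcc2 had 1.57 TPM in replicate 1 and 15.95 in replicate 2, Xrcc3 4.44 and 9.49, Rad51d 5.85 and 8.56, and Rad51c 0.92 and 1.07. Rad51c lay below its direct partner Xrcc3 in both libraries (log2 ratio -2.59 ± 0.62). For Rad51d and Xrcc2, which also bind each other, the order changed between libraries, from a log2 ratio of 1.83 in replicate 1 to -0.89 in replicate 2.

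Of the 4 checkpoint kinases, only Atr reached 1 TPM in both libraries, at 1.26 and 4.71 TPM. Atm had 0.75 and 0.57 TPM, Chek1 0.55 and 0.95 TPM, and Chek2 1.28 and 0.97 TPM. Chek1 and Atm were still counted, at 30 and 64 counts for Chek1 and 67 and 261 for Atm, so these are low levels and not absence. Atm lay below Chek2 by a log2 ratio of -0.69 ± 0.02 in TPM and not in CPM (0.46 ± 1.05), whereas the orders of Chek1 against Chek2 and of Atm against Atr did not exceed their spread.

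End joining genes were low apart from 1 Ku subunit. Xrcc6, which encodes Ku70, had 6.21 and 9.21 TPM, while Xrcc5, which encodes its obligate partner Ku80, had 1.27 and 0.98 TPM. The log2 ratio of Xrcc5 to Xrcc6 was -2.66 ± 0.64, a 6.30-fold lower level. The ratio was -1.59 ± 0.69 in CPM and -1.67 ± 1.26 on protein-coding transcripts, again short of 2 times the gap between libraries. Prkdc, the DNA-PK catalytic subunit that Ku recruits, had 1.03 and 1.39 TPM, and Lig4, the ligase that finishes end joining, 0.73 and 0.65 TPM. The strand-break ligase Lig3 exceeded Lig4 by a log2 ratio of 6.31 ± 0.62 in TPM and 4.14 ± 0.38 in CPM. Most Lig3 TPM lay on a short transcript, which raises the TPM ratio.

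Partner genes were compared within a library as log2 ratios of TPM + 0.1, which removes differences in depth. A pair passed if its ratio had 1 sign in both libraries and the mean ratio was more than 2 times the gap between them, and 12 of 22 pairs did. The ratio of Xrcc1 over Lig3 was 2.12 ± 0.05, although the TPM of each was close to 2 times as high in replicate 1. By scaled counts Xrcc1 was 1.85-fold and Lig3 1.55-fold higher in that library. The ratio of Xrcc1 over Lig3 was 3.45 ± 0.18 in CPM and 2.43 ± 0.23 on protein-coding transcripts. Apex1 exceeded Parp1 by 0.89 ± 0.16, and lay below it in CPM, which is not divided by length, at -1.05 ± 0.24. Rad50 exceeded Mre11a by 1.02 ± 0.22 and did not differ from Nbn beyond the spread (0.19 on average). On protein-coding transcripts both orders turned, with Rad50 to Mre11a at -2.97 ± 0.18 and Rad50 to Nbn at -3.79 ± 0.49. In Brca1 over Bard1, its obligate partner, the ratio was -0.61 in replicate 1 and 2.27 in replicate 2.

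**Figure D2:**
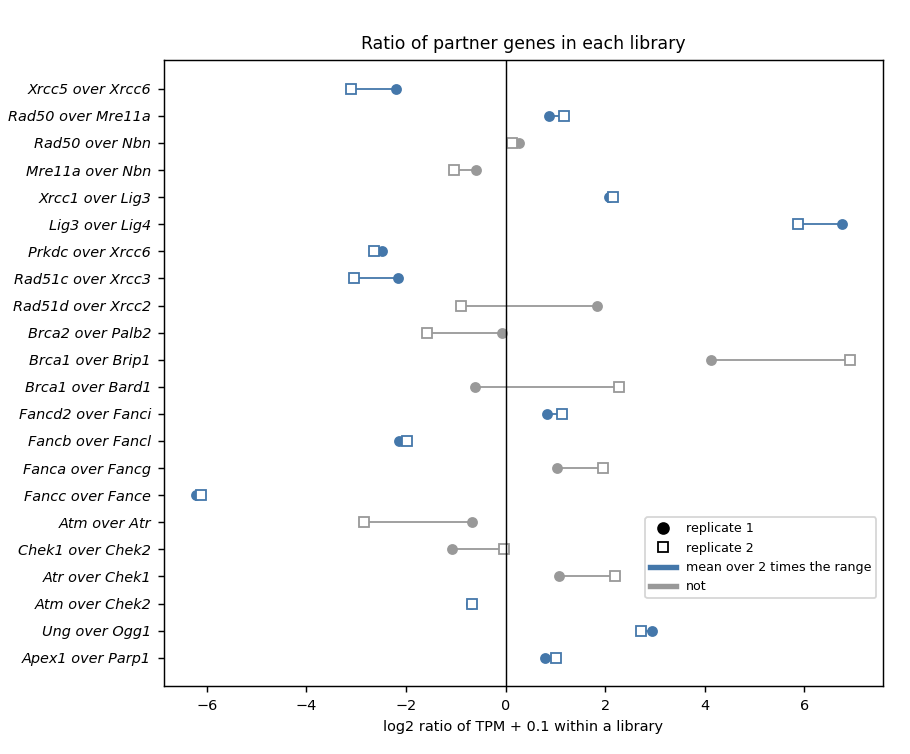
Log2 ratio of TPM + 0.1 of 22 gene pairs; circles are replicate 1, squares replicate 2, and blue rows passed the criterion given in the text. The ratio of Xrcc1 over Lig3 is nearly the same in both libraries, and Rad51d over Xrcc2 and Brca1 over Bard1 change sign.

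The annotated type of transcript that carried a gene's TPM differed within the list. Under 50% of TPM lay on protein-coding transcripts in both libraries for 10 of the 39 genes (25.6%), of which only Rad51c was not expressed. Of the 20 with a mean of 5 TPM or more it held for 6 (30%), and for 17.1% of the 8062 expressed nuclear protein-coding genes. In Rad50, 91.5% and 91.9% lay on Rad50-204, annotated for nonsense-mediated decay, a surveillance route that degrades messages with an early stop, and the full-length coding Rad50-201 had 1.11 and 0.65 TPM. In Ung, 72.7% and 81.7% lay on Ung-205, of the same type. Fance-201, also of that type, took 57.9% of Fance in replicate 1 and 27.2% in replicate 2. In Rad51c both detected transcripts were of this type and coding transcripts had 0 TPM.

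Retained-intron models carried much of several other genes. Rad52 had 0 TPM on coding transcripts, with 78.5% and 61.0% on Rad52-213. In Atr, 66.4% and 89.0% lay on Atr-210, leaving 0.19 and 0.31 TPM on the coding transcript Atr-201. Prkdc-202 took 59.6% and 64.2% of Prkdc. Pms2 also had 0 TPM on coding transcripts in both libraries. For Xrcc1, Msh6, Brca2, Fancm, Fancf, Chek2 and Xrcc5 the tables list 1 transcript each, which is coding, so their share of 100% is set by the annotation. Lig4 has 2 listed transcripts, and all of its TPM lay on the coding Lig4-201.

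In Brca1 the gap in TPM lay on a 539-base retained-intron transcript. Brca1-202 had 2.15 TPM in replicate 1 and 29.75 in replicate 2, 40.5% and 95.2% of the gene, while the coding Brca1-201, 6572 bases long, had 2.34 and 1.33 TPM. The gene's expected counts were 505 and 1103, a fold of only 1.29 after scaling, against 5.89 in TPM. Much of the TPM gap of Xrcc2 also lay on a short transcript, the 464-base coding Xrcc2-204, at 0.26 and 13.12 TPM. Unlike Brca1, its scaled counts differed 4.46-fold, and the 3247-base coding Xrcc2-201 had 0.54 and 1.58 TPM. In Fanca, the coding Fanca-201 was nearly level at 10.01 and 11.06 TPM, and the 667-base Fanca-206 was at 0 and 13.07 TPM. TPM divides by transcript length, so reads placed on a short model add more TPM than the same reads on a long one.

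**Figure D3:**
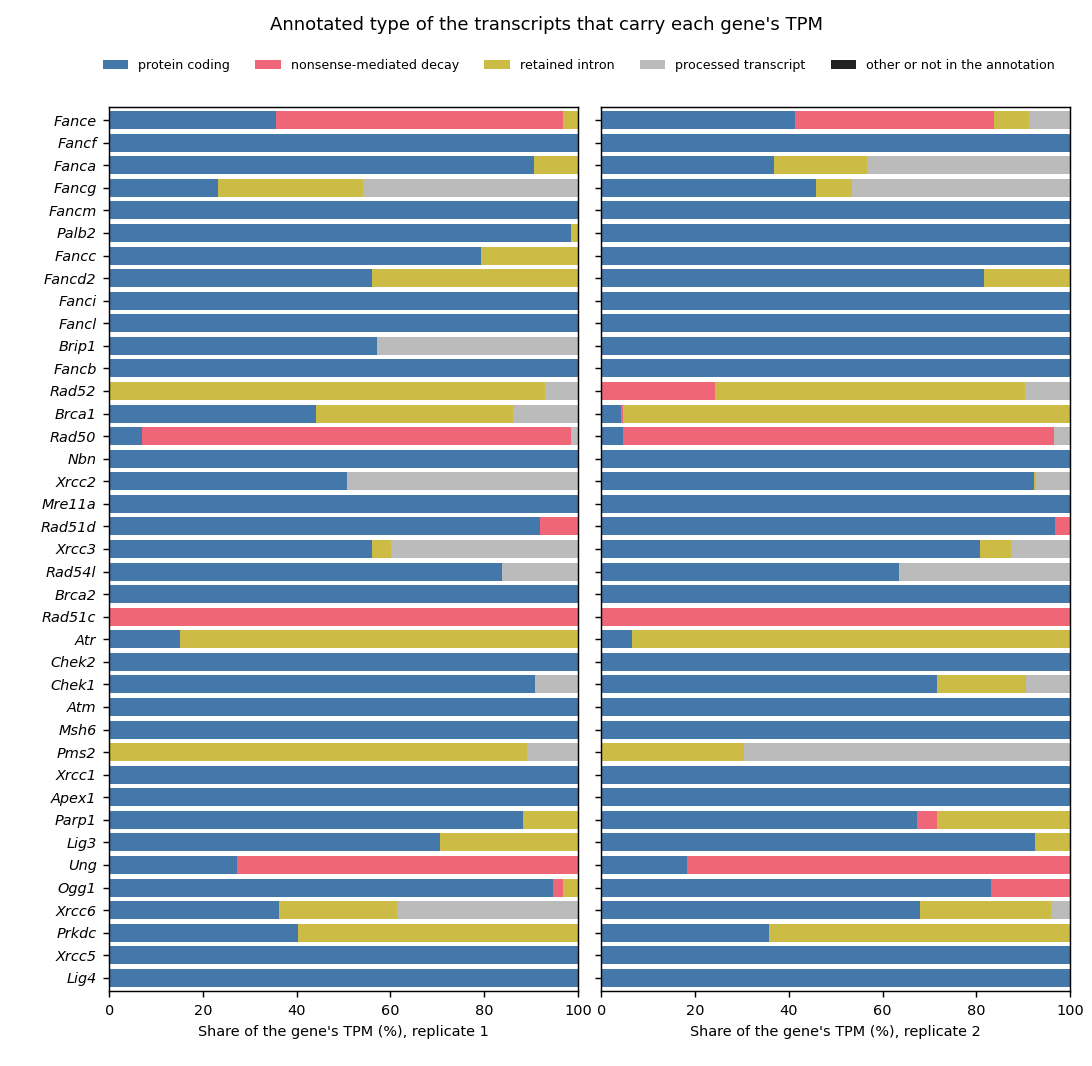
Share of each gene's TPM (%) by annotated transcript type, replicate 1 on the left and replicate 2 on the right, genes in the order of the plot of levels. Rad50, Rad51c and Ung are mostly nonsense-mediated decay in both libraries, and Brca1 goes from 40.5% to 95.2% on the retained-intron model Brca1-202.

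The 2 libraries were then compared by an exact two-sided binomial test on counts for each gene, with library sizes scaled by edgeR's TMM method and Benjamini-Hochberg adjustment over 11230 genes. It compares 2 libraries and no conditions. Of the 39 genes, 15 (38.5%) were called at an adjusted p under 0.05 and at least 1.5-fold, close to the 41.5% called among all tested genes. Higher in replicate 2 were 8 genes (20.5% of the 39, beside 22.8% of all tested genes). The other 7 were higher in replicate 1 (17.9% of the 39, beside 18.7%). The genes' median log2 ratio (replicate 2 over replicate 1) was 0.11, beside 0.01 for all tested genes.

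Higher in replicate 2 were Xrcc2 (71 and 539 counts; 4.46-fold, exact 95% interval 3.50 to 5.83; adjusted p of the exact binomial test 6.15e-45), Xrcc3 (187 and 972 counts; 3.07-fold), Atr (81 and 356; 2.59-fold), Fancg (162 and 637; 2.32-fold), Atm, Xrcc6, Pms2 and Apex1. Higher in replicate 1 were Fanci (133 and 78 counts; 2.88-fold), Brca2 (965 and 629; 2.59-fold, adjusted p of the exact binomial test 9.00e-79), Xrcc1 (23150 and 21164; 1.85-fold), Fancd2, Rad52, Lig3 and Fancm. Both substrates of the Fanconi core complex, Fancd2 and Fanci, were thus higher in replicate 1, at log2 ratios of -0.77 and -1.52. Both apical kinases, Atm and Atr, were higher in replicate 2 by counts, at 1.20 and 1.37.

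Atm went the other way in TPM, with a log2 ratio of -0.34. Its long coding transcript Atm-201, of 10006 bases, had 0.2 and 0.48 TPM, and the 602-base Atm-203 had 0.55 and 0.09 TPM. Fance, Nbn, Ung and Rad50 lay within 1.1-fold of equal by scaled counts. Msh6, at 1.43-fold higher in replicate 1, and Fanca, at 1.39-fold higher in replicate 2, had adjusted p-values by the exact binomial test of 2.08e-48 and 1.84e-25 and fell short of 1.5-fold. Calls that used total counts without scaling lost Fancm, Rad52 and Lig3 and added Fanca and Rad51d.

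**Figure D4:**
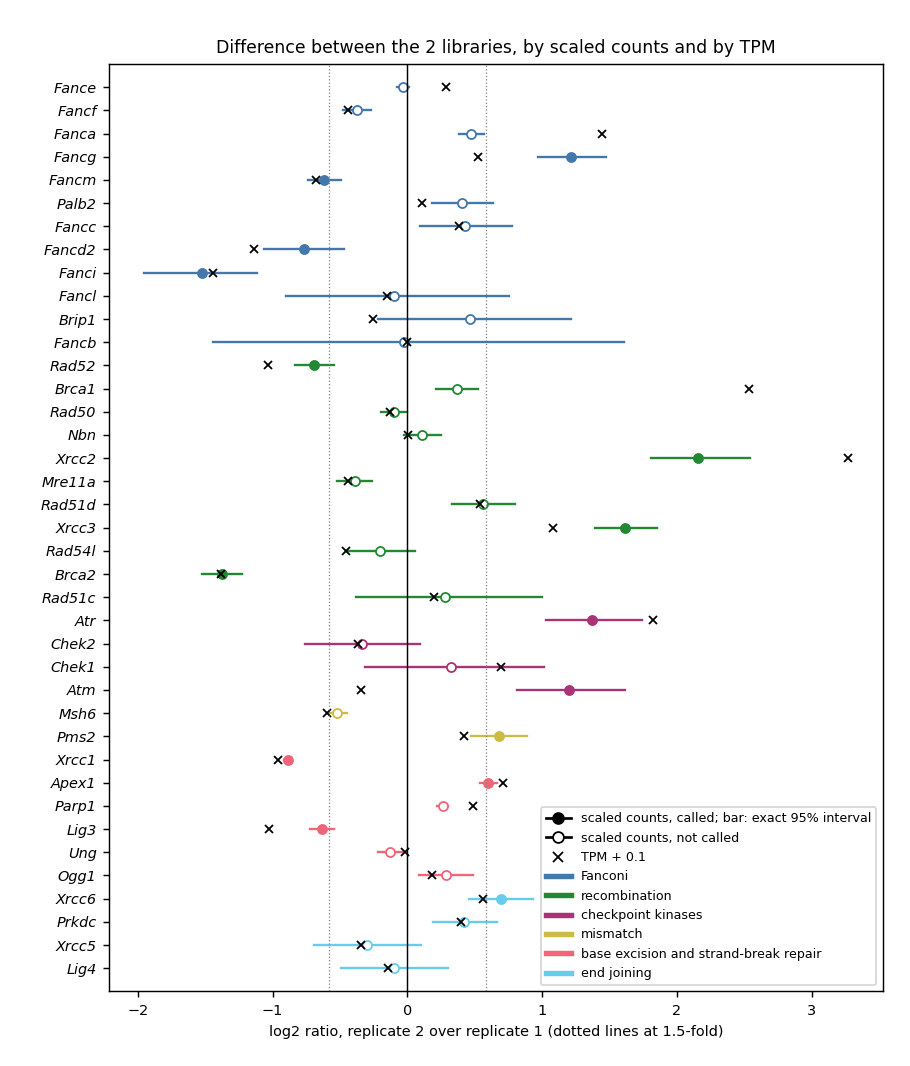
Log2 ratio of replicate 2 to replicate 1 for each gene; circles are scaled counts with exact 95% intervals (filled where called), crosses are TPM + 0.1, and dotted lines mark 1.5-fold. The circle and cross of Brca1 lie at 0.37 and about 2.5, and those of Atm lie on opposite sides of 0.

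Genes with GC-rich coding sequences stood higher within the list. Coding GC content had a median of 47.9%, from 40.3% in Fancb to 69.8% in Fancf. It was 51.9% in all nuclear protein-coding genes and 53.5% in the expressed ones. Of 13 genes under 45% GC, 5 were expressed, with medians of 0.92 and 0.98 TPM. Of 11 genes from 45 to 50%, 8 were expressed, with medians of 3.17 and 2.86 TPM. All 15 genes at 50% or more were expressed, with medians of 28.31 and 20.79 TPM. In all nuclear protein-coding genes the share expressed in the same 3 classes was 21.2%, 36.2% and 43.1%. The highest gene under 45% was Rad50, at 15.0 TPM.

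Across the 39 genes, the log level and coding GC had Pearson's r of 0.66 and 0.66 and Spearman's rho of 0.71 and 0.69 in replicates 1 and 2. Without the 2 genes farthest from the median GC, r was 0.64 and 0.66. Across 21415 nuclear protein-coding genes, r was 0.21 and 0.19, and across the 8051 expressed ones 0.31 and 0.28. These are descriptions across genes, which share the libraries and are not independent replicates. Without division by length, in CPM, r was 0.54 and 0.59. Coding GC also went with coding length in the list (r = -0.56), and level with coding length less closely (r = -0.25 and -0.30). The difference between the libraries hardly followed GC (r = 0.04).

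The extremes of the list show the contrast in letters, in 60 bases from the middle of the coding sequence in GENCODE transcripts, with G and C in capitals. Fancb-202 (coding bases 1264 to 1323) has 26 G or C of 60, and Fancf-201 (coding bases 484 to 543) has 45.
Fancb: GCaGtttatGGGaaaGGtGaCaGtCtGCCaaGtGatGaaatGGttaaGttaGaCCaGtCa
Fancf: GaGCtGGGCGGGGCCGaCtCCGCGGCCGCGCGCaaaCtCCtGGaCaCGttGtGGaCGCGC
The former is the lowest of the 39 genes, at 0.08 TPM in each library, and the latter the eighth in order of mean TPM.

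**Figure D5:**
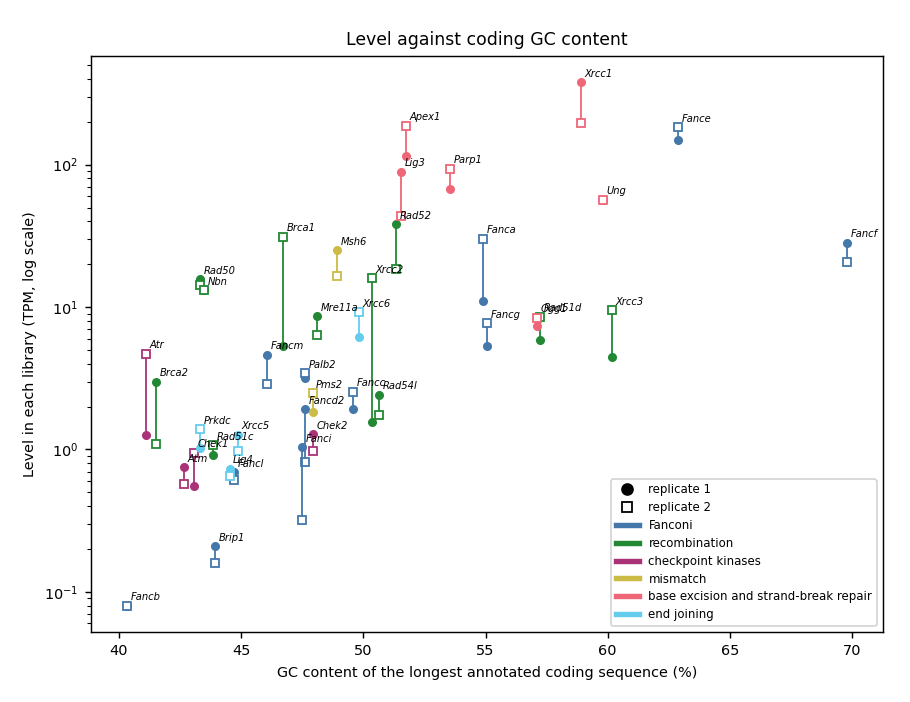
Level in TPM (log axis) against GC content of the longest annotated coding sequence (%), one gene per vertical line, circles for replicate 1 and squares for replicate 2, coloured by pathway. All 15 genes at 50% GC or more lie above 1 TPM in both libraries.

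For 14 of the 39 genes, another protein-coding gene starts on the opposite strand within 1000 bases upstream, from 21 bases (Lig4 and Abhd13) to 466 bases (Prkdc and Mcm4), with a median of 160.5. The neighbour was higher in both libraries for 9 of the 14. The share of such pairs over all genes was not computed. Mcm4, a subunit of the replicative helicase, had 103.45 and 93.36 TPM, beside 1.03 and 1.39 for Prkdc. Nbr1, an autophagy receptor, had 154.66 and 152.77 TPM beside Brca1. Emc3 had 39.06 and 20.17 TPM, with its start 30 bases from that of Fancd2, at 1.92 and 0.82. Aimp2, a scaffold of the tRNA synthetase complex, had 65.8 and 203.85 TPM, beside 1.84 and 2.49 for Pms2. Hscb, an iron-sulfur cluster cochaperone, had 32.25 and 41.63 TPM beside Chek2, at 1.28 and 0.97.

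The reverse order, with the repair gene higher, held for Xrcc1 over Pinlyp (0 and 0.03 TPM), Apex1 over Osgep (95.34 and 45.68 TPM) and Rad51c over Tex14 (0.02 and 0 TPM). Palb2 with Dctn5 and Xrcc3 with Zfyve21 changed order between the libraries. Atm and its neighbour Npat were both low, Npat at 0.87 and 0.79 TPM. Both genes of a pair were called between the libraries in the same direction for Fancd2 with Emc3 and for Pms2 with Aimp2. For Apex1 with Osgep the directions were opposite. Since 41.5% of all tested genes were called, pairs with 2 called genes are not particular to this list.

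Exons of 19 of the 39 genes overlap 22 genes on the other strand, and since the use of strand in counting is not stated, their counts are uncertain. The overlapping gene stood higher than the repair gene in both libraries for Fancl, with Vrk2 at 38.2 and 25.3 TPM, for Xrcc6, with Desi1 at 71.6 and 66.19, for Rad54l, with Lrrc41 at 39.39 and 36.49, and for Xrcc3, with Klc1 at 32.66 and 39.45. For Apex1 the overlapping Pip4p1 had 163.47 and 96.41 TPM.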

How the data were processed

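Paired-end polyA RNA-seq of 2 libraries of 1 group was read from 1 gene table and 1 transcript table per library. The build is mm10 per the labels, and the deposited notes name GENCODE M4; the sources used here name no aligner or quantifier. The deposited expected counts are the authors' estimated fragment counts. The deposited TPM and FPKM divide them by effective transcript length, and the deposited isoform percent gives how much of a gene's TPM each transcript holds. Symbols, transcript types and coordinates were taken by identifier from GENCODE M21 (GRCm38), and promoter windows from RefSeq. The 26345 rows without an Ensembl gene did not enter library sizes or tests.

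The genes, pairs and lists were chosen with earlier results of these data known. With 1 group, no test between conditions was possible. Expected counts were rounded and tested between the 2 libraries (at least 10 counts in sum, scipy 1.17.1, edgeR 4.0.16 for TMM, 0.5 counts added for folds), after a check on simulated data. The test holds counting error only, and so do the intervals (95%). Coding GC comes from the longest coding sequence. Alternatives were other thresholds, units (FPKM, CPM, TPM on protein-coding transcripts), pseudocounts, scalings (DESeq2 1.42.0 size factors, total counts), filters and each replicate left out. All 39 genes, both genes of each pair and each neighbour are named; of 86 further repair genes, the 2 highest per pathway and those under 1 TPM in a library. Some genes that this naming picks, and 2 pairs, are not reported here.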

Additional observations from a re-analysis of the deposited data

How the results depend on the processing

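The count of 28 expressed genes was 36 at 0.5 TPM, 18 at 5 TPM, 26 in FPKM, 34 in CPM and 22 on protein-coding transcripts alone. It was 29 to 32 with 1 library left out. The median level of 6.53 TPM was 2.05 on protein-coding transcripts and 4.44 to 6.32 with 1 library left out (4.44 without replicate 2). The 15 calls between the libraries were the same 15 genes with DESeq2 size factors. With total counts they were 14, of which 12 were shared, and 4 in place of 7 were higher in replicate 1; that scaling moved the median log2 ratio of all genes from 0.01 to 0.12 and called 26.8% of all genes higher in replicate 2 and 14.6% in replicate 1. At 2-fold they were 7, 5 higher in replicate 2 and 2 in replicate 1. The log2 ratio of Atm reversed to -0.34 in TPM. On protein-coding transcripts the log2 ratios of Rad50 to Mre11a (-2.97), Rad50 to Nbn (-3.79), Brca1 to Bard1 (-1.97) and Atr to Chek1 (-0.99) reversed. In CPM, those of Atm to Chek2 (0.46) and Apex1 to Parp1 (-1.05) did. Mean ratios that passed the criterion in neither unit also changed sign. These were Brca2 to Palb2 (1.14), Brca1 to Bard1 (-1.11) and Mre11a to Nbn (0.03) in CPM, and Atm to Atr (1.13) on protein-coding transcripts. The cause was not tested. No paired analysis was possible because there is 1 group. The binomial test was not run with a library left out, since it needs both. Genes with under 100 counts, such as Fancb, Fancl, Brip1 and Chek1, are limited by depth, and their folds have wide intervals.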

Other observations

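Further repair genes outside the 39 were measured, among them nucleotide excision, translesion and direct reversal genes, which the 39 do not cover. Of 85 measured, 74 reached 1 TPM in both libraries (87.1%), with a median of 12.7 TPM, beside 28 of the 39 genes and 6.53 TPM; this difference was not tested. The order was the reverse for base excision, at 8.75 TPM beside 73.4, and for mismatch repair, at 7.56 TPM beside 11.5. Base excision did not lead the further genes. Their medians were 17.8 TPM for checkpoint, 16.8 for Fanconi, 13.5 for nucleotide excision and 11.5 for recombination genes. Translesion and direct reversal genes had a median of 8.655 TPM and end joining genes 4.64. All 8 further Fanconi genes were expressed, led in TPM by Usp1, the enzyme that removes ubiquitin from FANCD2, at 1028.33 and 394.49 TPM. Usp1 had 7274 and 5399 counts, fewer than the 23150 and 21164 of Xrcc1, whose TPM was lower. Next by mean TPM was Slx4, a nuclease scaffold, at 20.71 and 52.84 TPM, with 4.68 and 14.61 on protein-coding transcripts. Of 14 recombination genes, 12 were expressed, led by the single-strand binding subunits Rpa1 (76.63 and 127.08 TPM) and Rpa2 (46.21 and 82.23 TPM). On protein-coding transcripts Rpa1 had 28.04 and 41.48 TPM, and Rpa2 11.32 and 9.43. All 14 checkpoint genes looked up were expressed (the 15th listed symbol was misspelled and so not looked up). The highest were the phosphatase Cdc25b (67.45 and 96.02 TPM) and the ATR activator Topbp1 (36.86 and 48.23 TPM). For some of the 14, protein-coding transcripts alone held under 1 TPM in both libraries.

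Of 5 mismatch genes, 4 were expressed, among them Msh3, which recognises larger loops, at 25.57 and 25.77 TPM. Of this Msh3 level, 1.5 and 0.53 TPM lay on protein-coding transcripts. Base excision genes were expressed in 14 of 16 cases, led by Lig1 (92.55 and 123.21 TPM) and Fen1 (66.52 and 132.08 TPM), which seal and trim replication and repair patches. On protein-coding transcripts Lig1 had 4.07 and 10.86 TPM, and Fen1 66.52 and 132.07. End joining was again low, with 3 of 6 expressed, led by the gap-filling polymerases Polm (68.26 and 33.97 TPM) and Poll (9.88 and 15.72 TPM). On protein-coding transcripts Polm had 8.33 and 10.78 TPM, and Poll kept all of its TPM. Nucleotide excision genes were expressed in 10 of 12 cases, among them the XPC partner Rad23b, at 397.62 and 216.06 TPM. Its protein-coding transcripts held 73.8 and 67.87 TPM. Translesion and direct reversal genes were expressed in 9 of 10 cases, led by Rev1 (40.82 and 16.83 TPM) and Mad2l2 (25.94 and 33.27 TPM). Rad51b, Rbbp8, Mlh3, Neil2, Aptx, Nhej1, Dclre1c, Dntt, Ddb2, Ercc8 and Polk were under 1 TPM in at least 1 library, and Dntt, the terminal transferase of lymphocytes, had 0 counts in both. Between the libraries, 33 of the 84 tested genes were called (39.3%, background 41.5%). Of the 84, 22 were higher in replicate 2 (26.2%, beside 22.8% of all tested genes) and 11 in replicate 1 (13.1%, beside 18.7%).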
